A study of Sus scrofa with 12 samples.

Results

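The genes described here are the ATP-binding cassette (ABC) transporters of classes A to G and the organic anion transporters of the SLCO family in pig liver. They were taken as the rows of the gene table whose deposited symbol is ABC with a class letter and a number, other than ABCD3, or starts with SLCO and a digit. This gave 45 genes of 21169 rows, 37 ABC and 8 SLCO. The choice used names only and no measured value. The 12 liver RNA libraries were taken to be of 12 pigs (Sus scrofa), and per the labels the series sets 2 breeds against 2 housing temperatures. The groups were Hezuo pigs in the cold (-15 ± 2 °C), Hezuo pigs at room temperature (23 ± 2 °C), Bama pigs in the cold and Bama pigs at room temperature, with 3 separate pigs in each and every liver taken on day 15. Hezuo pigs come from cold highland in China, and Bama pigs are small and come from its subtropical lowland. The labels used here give no sex, and no treatment other than the housing temperature.

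ABC transporters use ATP to move bile salts, lipids, sterols, drugs and conjugates across membranes. In hepatocytes, one set sits in the canalicular membrane and makes bile, another exports back to blood or loads cholesterol onto lipoproteins, and others work in mitochondria, lysosomes and peroxisomes. SLCO proteins, also called OATPs, work in the opposite direction at the blood-facing membrane, where they take up bile salts, bilirubin, hormones and many drugs. A few ABC proteins (ABCE1 and the F class) have no membrane part and act in translation.

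Gene counts totalled 20041270 to 30188033 per library, and the 45 genes took 0.270 to 0.421% of them. All 10 hepatocyte markers were found, with summed levels of 49900 to 202000 CPM (counts scaled to library size) in every library. That sum was 89000 to 169000 CPM in Hezuo cold against 183000 to 202000 CPM in Hezuo room temperature, and 49900 to 115000 CPM in Bama cold against 135000 to 151000 CPM in Bama room temperature. The summed level of 10 stellate and mesenchymal markers was 1010 to 1500 CPM in Hezuo cold against 1610 to 2560 CPM in Hezuo room temperature, and 836 to 1280 CPM in Bama cold against 2180 to 3930 CPM in Bama room temperature. The part of these shifts in the results below was not tested. Libraries are of whole liver, so fewer cells of a type and less RNA per cell cannot be told apart. RNA of the Y-linked gene DDX3Y was present in all 6 Hezuo libraries (1331 to 2407 counts), in 2 of 3 Bama cold libraries (2284 and 3769 counts, 0 in replicate 2) and at 0 to 3 counts in the Bama room temperature libraries. Breed at room temperature and presence of Y-linked RNA therefore cannot be told apart.

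The deposited FPKM values, which are scaled for gene length and allow levels of different genes to be compared, spread the 45 genes widely. The bile salt export pump ABCB11 stood first with a mean of 94.9 FPKM over the 12 libraries (55.4 to 134). ABCC2, the canalicular exporter of conjugated bilirubin, followed with 71.9 FPKM (55.3 to 89.3), and SLCO2B1, an uptake carrier of sulfated steroids and drugs, with 65.2 FPKM (53.9 to 84.7). ABCC6, which in human and mouse liver supports release of ATP into blood and limits calcification elsewhere, had 61.1 FPKM, and the A-class lipid transporter ABCA6 had 61.0 FPKM. The ranges of these 5 genes overlapped over the 12 libraries. Within each library ABCB11 lay above ABCC2, by the smallest gap in Hezuo cold replicate 3 (55.4 against 55.3 FPKM). A further 12 genes had means of 10 to 50 FPKM, among them ABCA8 (40.2), SLCO1A2 (36.1), ABCA1 (28.8), ABCG8 (21.1), ABCG2 (17.8) and ABCG5 (13.1). Another 14 lay between 1 and 10 FPKM, and 14 lay below 1 FPKM. 

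**Figure D1:**
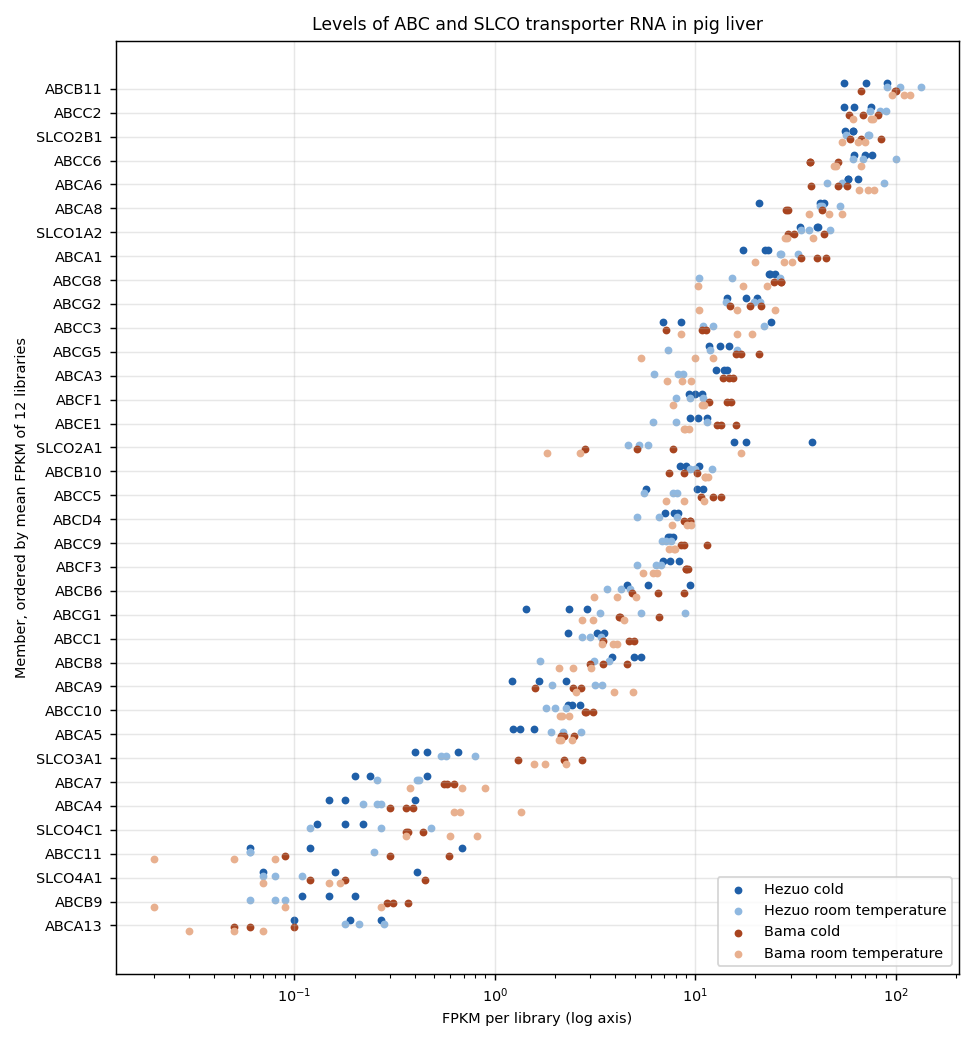
Deposited FPKM (log axis) of 36 of the 38 genes with a mean of at least 0.1 FPKM, 1 point per library, ordered by mean. ABCB11, ABCC2 and SLCO2B1 lead with means of 94.9, 71.9 and 65.2 FPKM, and ABCA13 stands last with 0.133 FPKM.

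Counts were high enough for testing in 38 of the 45. The 7 others were near or at 0 in every library. ABCC12, SLCO1C1 and SLCO6A1 had no count in any library, ABCD2 had 1 count, ABCB5 had 4, ABCA12 had 5 and ABCC8, the regulatory subunit of the pancreatic potassium channel, had 10 counts over the 12 libraries. Among the 38 tested genes, the spread of CPM over all libraries was smallest for ABCC9 (coefficient of variation 9.1%), a channel subunit of vascular muscle, and for the efflux transporter ABCC10 (10.3%). It was largest for ABCC11 (112%), the prostaglandin carrier SLCO2A1 (101%) and ABCA4 (78.8%). The median coefficient of variation was 26.1% for the 38 genes and 22.7% for all 13532 genes tested.

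Averaged over both breeds, cold against room temperature changed 4 of the 38 genes (10.5%), by edgeR's quasi-likelihood test with a Benjamini-Hochberg adjusted p below 0.05 over all 13532 genes, where 3.89% of all genes passed. ABCA3 and ABCF3 rose (1.95% of all genes did) and ABCA9 and ABCA5 fell (1.94% of all genes did). The median log2 fold change was 0.02 for the 38 genes and -0.01 for all genes. At an unadjusted p below 0.05 the comparison held 19 of the 38 genes, against 23.5% of all genes. DESeq2 called 6, namely these 4 together with ABCB10 and ABCB11, both lower in the cold, and 10.6% of all genes to which it gave an adjusted p. With presence of Y-linked RNA as a covariate none of the 38 passed and 6 of all genes did, in place of 526. Its presence varied only within Bama cold, so the Bama part of that fit rests on Bama cold replicate 2. The lost calls therefore cannot tell cold and Y-linked RNA apart.

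ABCA3, a phospholipid transporter best known from the lamellar bodies of lung cells, showed the smallest adjusted p of the 38. It had 99.6, 85.9 and 106 CPM in Hezuo cold against 69.1, 48.5 and 61.7 CPM in Hezuo room temperature. In Bama it had 84.6, 81.7 and 86.0 CPM in the cold against 61.7, 60.6 and 46.6 CPM at room temperature. Every cold library lay above every room temperature library in both breeds, and only ABCA3 and ABCB9 of the 38 did so in both breeds in the same direction, where 5.11% of all genes did. The averaged log2 fold change was 0.64 ± 0.11 (SE, adjusted p = 0.0145). The call held in each of 12 fits that left out 1 library (adjusted p = 0.0174 to 0.0374).

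ABCF3, a soluble ABC protein tied to translation, had 44.3, 51.1 and 49.2 CPM in Hezuo cold against 45.9, 33.7 and 41.0 CPM in Hezuo room temperature. In Bama it had 45.6, 45.8 and 48.5 CPM in the cold against 36.1, 33.3 and 33.5 CPM at room temperature. The groups were apart in Bama and overlapped in Hezuo. Its averaged log2 fold change was 0.35 ± 0.09 (SE, adjusted p = 0.0452). That call is at the threshold: it held in 2 of the 12 fits that left out 1 library (without Hezuo cold replicate 1 and without Hezuo room temperature replicate 1), and leaving out any of the other 10 libraries gave an adjusted p of 0.0600 to 0.110. The 2 other soluble proteins had positive values that did not pass, 0.37 ± 0.14 for ABCE1, which splits ribosomes for recycling (SE, adjusted p = 0.131), and 0.19 ± 0.11 for ABCF1, which acts in initiation (adjusted p = 0.342).

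ABCA5, ABCA6, ABCA8 and ABCA9 belong to a subgroup of A-class genes that lie side by side in mammals, and circRNAs of ABCA5, ABCA6 and ABCA8 in the deposited circRNA table all lie on chromosome 12. All 4 genes had negative averaged cold values, from -0.84 to -0.39 with a median of -0.49 on the log2 scale, and 2 of them passed. ABCA9 had 13.9, 9.74 and 8.04 CPM in Hezuo cold against 13.1, 22.0 and 19.5 CPM in Hezuo room temperature, and 7.88, 13.0 and 12.6 CPM in Bama cold against 21.2, 15.4 and 25.4 CPM in Bama room temperature. The Bama groups were apart, while in Hezuo the highest cold library lay above the lowest room temperature library. ABCA9 fell by 0.84 ± 0.20 on the log2 scale (SE, adjusted p = 0.0405). The call held in 4 of the 12 fits that left out 1 library (without Hezuo cold 1, Hezuo room temperature 1, Bama cold 2 or Bama room temperature 2) and was lost without any of the other 8 (adjusted p = 0.0649 to 0.104).

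ABCA5, a lysosomal lipid transporter, had 7.13, 8.80 and 8.12 CPM in Hezuo cold against 13.6, 11.8 and 15.9 CPM in Hezuo room temperature. In Bama it had 9.63, 10.4 and 12.1 CPM in the cold against 12.7, 11.6 and 10.8 CPM at room temperature. The Hezuo groups were apart and the Bama groups overlapped. The averaged log2 fold change was -0.45 ± 0.11 (SE, adjusted p = 0.0431), and no fit that left out 1 library kept the call (adjusted p = 0.0577 to 0.0913). ABCA8 (-0.52 ± 0.19, adjusted p = 0.131) and ABCA6 (-0.39 ± 0.16, adjusted p = 0.175) did not pass. ABCA6 had 377, 327 and 345 CPM in Hezuo cold against 335, 273 and 509 CPM in Hezuo room temperature, and 172, 241 and 282 CPM in Bama cold against 335, 404 and 386 CPM in Bama room temperature, so that the groups were apart in Bama and overlapped in Hezuo.

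**Figure D2:**
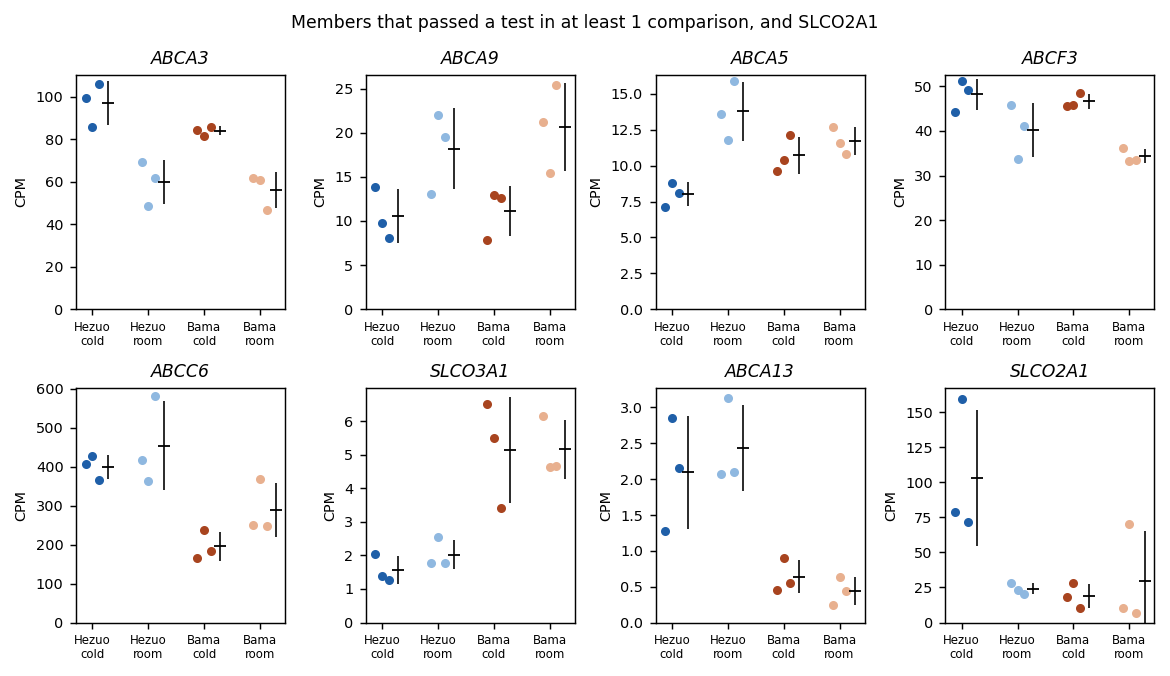
CPM per library (points) with the mean and SD of 3 libraries (black) for the 7 genes called in any comparison and for SLCO2A1, cold left of room temperature and Hezuo left of Bama. Each cold library of ABCA3 lies above each room temperature library of its breed, and the Bama room temperature bar of SLCO2A1 is cut at 0 because 1 library stands at 70.5 CPM.

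Within a breed, cold against room temperature called none of the 38 genes by edgeR's quasi-likelihood test. In Hezuo, 0.281% of all genes passed, 8 of the 38 had an unadjusted p below 0.05 (21.1%, against 15.6% of all genes), and DESeq2 called 4 (ABCA1, ABCA3, ABCA5 and ABCG1), where it called 4.02% of all genes. In Bama, 0.924% of all genes passed, 15 of the 38 had an unadjusted p below 0.05 (39.5%, against 15.8% of all genes), and DESeq2 called 6, among them ABCA3, ABCA4, ABCB10 and ABCF3, where it called 5.0% of all genes. Cold and room temperature libraries did not overlap for 10 genes in Hezuo, 4 higher and 6 lower in the cold, where 21.8% of all genes showed no overlap. They did not overlap for 15 genes in Bama, 10 higher and 5 lower, against 21.3% of all genes.

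The 5 genes with the smallest p in Hezuo were ABCG1 (log2 fold change -1.59 ± 0.31, SE, edgeR adjusted p = 0.0723), ABCA5 (-0.78 ± 0.16, adjusted p = 0.0723), ABCA3 (0.70 ± 0.15, adjusted p = 0.0848), ABCA1 (-0.55 ± 0.17, adjusted p = 0.167) and ABCB11 (-0.66 ± 0.23, adjusted p = 0.215). Among the smallest p in Bama were ABCA4 (-1.52 ± 0.39, adjusted p = 0.0969), ABCB10 (-0.52 ± 0.14, adjusted p = 0.104), ABCA3 (0.58 ± 0.15, adjusted p = 0.107) and ABCF3 (0.44 ± 0.12, adjusted p = 0.118). ABCA3 is named for both breeds and passed in neither. The 2 fold changes come from separate libraries, but their p-values share 1 estimate of the spread from all 12 libraries.

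**Figure D3:**
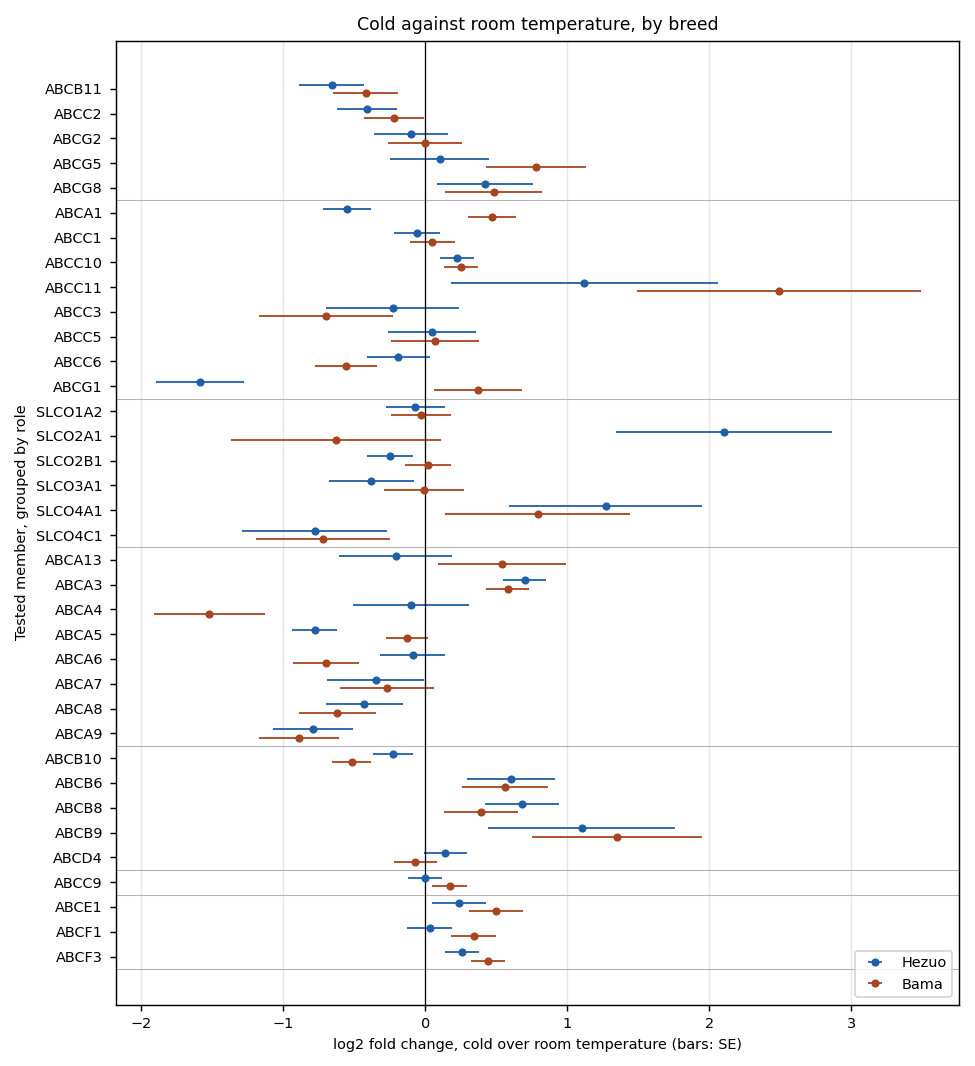
Log2 fold change, cold over room temperature, with its SE for 36 of the 38 tested genes in Hezuo and in Bama, grouped by role. ABCA3 lies above 0 in both breeds (0.70 and 0.58), while ABCG1 (-1.59 and 0.37) and ABCA1 (-0.55 and 0.47) lie on opposite sides of 0.

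Of the 5 canalicular exporters, which pump bile constituents out of hepatocytes, none passed in any of the 6 comparisons, and their median averaged cold value was -0.05. ABCB11 had 557, 427 and 340 CPM in Hezuo cold against 673, 582 and 828 CPM in Hezuo room temperature, and 319, 483 and 524 CPM in Bama cold against 517, 639 and 620 CPM in Bama room temperature. Each Hezuo cold library lay below each Hezuo room temperature library, while in Bama 1 cold library (524 CPM) lay above 1 room temperature library (517 CPM). The averaged value was -0.54 ± 0.16 (SE, edgeR adjusted p = 0.0827), and DESeq2 called it (adjusted p = 0.0205). ABCC2 had 583, 452 and 417 CPM in Hezuo cold against 673, 592 and 662 CPM in Hezuo room temperature, and 328, 410 and 534 CPM in Bama cold against 398, 580 and 508 CPM in Bama room temperature. Its Hezuo groups were apart by a narrow gap and its Bama groups overlapped, with an averaged value of -0.32 ± 0.15 (SE, adjusted p = 0.220).

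ABCG5 and ABCG8 form the heterodimer that secretes cholesterol and plant sterols into bile, and they are adjacent genes. ABCG5 had 87.3, 77.1 and 73.2 CPM in Hezuo cold against 103, 45.7 and 72.7 CPM in Hezuo room temperature, and 81.8, 88.0 and 110 CPM in Bama cold against 53.9, 81.4 and 28 CPM in Bama room temperature. ABCG8 had 118, 113 and 130 CPM in Hezuo cold against 141, 53.4 and 76.2 CPM in Hezuo room temperature, and 93.9, 102 and 108 CPM in Bama cold against 73.0, 103 and 42.5 CPM in Bama room temperature. Both genes were low in the same room temperature libraries (Hezuo replicate 2 and Bama replicate 3), and the cold libraries were closer together. ABCG8 averaged 120 ± 8.79 CPM in Hezuo cold and 90.1 ± 45.2 CPM in Hezuo room temperature (SD, n = 3 each). The averaged cold values were 0.44 ± 0.25 for ABCG5 and 0.45 ± 0.24 for ABCG8 and did not pass (SE, adjusted p = 0.310 and 0.286). ABCG2, an exporter of drugs and urate, had 38.1, 48.3 and 46.6 CPM in Hezuo cold against 53.5, 37.6 and 51.2 CPM in Hezuo room temperature, and 39.1, 42.7 and 33.5 CPM in Bama cold against 23.8, 56.3 and 35.3 CPM in Bama room temperature. These groups overlapped in both breeds (averaged value -0.05 ± 0.18, adjusted p = 0.900). The table also holds an ABCG2-like row, and how reads shared between such copies were counted is not given in the sources used here.

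The sterol exporters ABCA1, which loads cholesterol onto apolipoprotein A-I to form HDL, and ABCG1, which passes cholesterol to HDL and is known best from macrophages, had cold values of opposite sign in the breeds. ABCA1 had 204, 209 and 163 CPM in Hezuo cold against 267, 263 and 312 CPM in Hezuo room temperature, and 320, 248 and 309 CPM in Bama cold against 221, 173 and 236 CPM in Bama room temperature. All cold libraries were below all room temperature libraries in Hezuo and above them in Bama. It was the only one of the 38 genes without overlap in opposite directions, where 0.532% of all genes had this pattern. ABCG1 had 11.9, 13.1 and 8.0 CPM in Hezuo cold against 19.8, 30.4 and 49.4 CPM in Hezuo room temperature, and 26.1, 18.0 and 19.6 CPM in Bama cold against 14.4, 14.4 and 20.4 CPM in Bama room temperature. The Hezuo groups were apart and the Bama groups overlapped.

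The difference between the breeds in the cold response (Hezuo minus Bama) called none of the 38 genes by edgeR's quasi-likelihood test, where 0.00739% of all genes passed. At an unadjusted p below 0.05 it held 6 of the 38 (15.8%), against 8.02% of all genes, and DESeq2 called 2, ABCG1 and ABCA1, where it called 0.864% of all genes. The difference was -1.96 ± 0.44 for ABCG1 (SE, edgeR adjusted p = 0.213, DESeq2 adjusted p = 0.00502) and -1.02 ± 0.24 for ABCA1 (edgeR adjusted p = 0.237, DESeq2 adjusted p = 0.00808). The next 3 were ABCA5 (-0.65 ± 0.22, edgeR adjusted p = 0.441), SLCO2A1 (2.73 ± 1.06, adjusted p = 0.542) and ABCA4 (1.42 ± 0.56, adjusted p = 0.545). The SLCO2A1 value rests on 1 library: without Bama room temperature replicate 2 it was 0.99 ± 0.57 (adjusted p = 0.690). The summed level of 10 Kupffer and macrophage markers was 2560 to 4280 CPM in Hezuo cold against 1730 to 2710 CPM in Hezuo room temperature, and 3250 to 5440 CPM in Bama cold against 2380 to 3250 CPM in Bama room temperature. The highest value of that sum was in the cold in both breeds, while ABCG1 had its lowest values in Hezuo cold, and its part in the ABCG1 values was not tested.

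**Figure D4:**
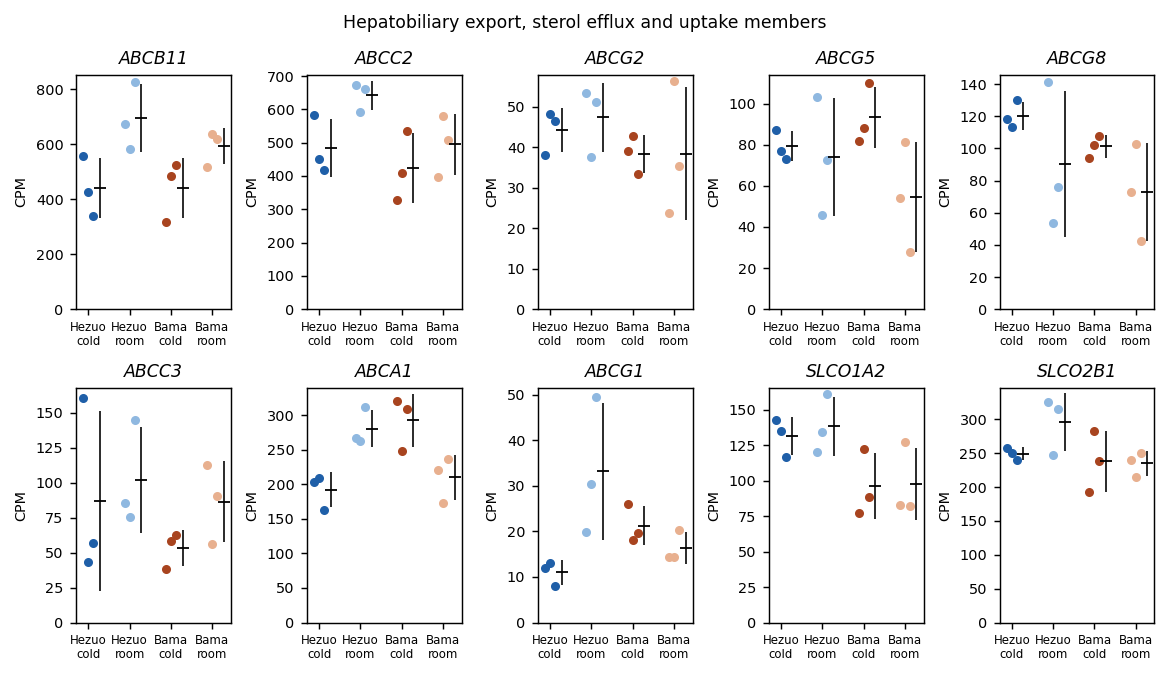
CPM per library (points) with the mean and SD of 3 libraries (black) for 10 genes of bile formation, sterol efflux and uptake, cold left of room temperature and Hezuo left of Bama. ABCA1 averages 192 CPM in Hezuo cold and 281 CPM in Hezuo room temperature, against 292 CPM in Bama cold and 210 CPM in Bama room temperature.

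Of the other exporters, none passed in cold against room temperature. ABCC3, which exports conjugates back to blood, had 161, 43.4 and 56.7 CPM in Hezuo cold against 85.4, 75.3 and 145 CPM in Hezuo room temperature, and 38.6, 58.0 and 62.8 CPM in Bama cold against 113, 56.0 and 90.7 CPM in Bama room temperature. Pigs of 1 group differed widely, as the 87.0 ± 64.4 CPM of Hezuo cold shows (SD, n = 3), and the averaged value of -0.47 ± 0.33 did not pass (SE, adjusted p = 0.427). ABCC1, ABCC5 and ABCC10 had averaged values of -0.00 ± 0.11, 0.06 ± 0.22 and 0.23 ± 0.09. ABCC11 had an averaged value of 1.80 ± 0.69 (adjusted p = 0.145) from levels of at most 2.98 CPM.

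Of the 8 SLCO genes, 6 were tested, none passed in cold against room temperature, and their median averaged cold value was -0.08. SLCO1A2, an uptake carrier of bile salts and steroid conjugates, had 143, 135 and 117 CPM in Hezuo cold against 120, 134 and 161 CPM in Hezuo room temperature, and 77.2, 122 and 88.6 CPM in Bama cold against 83.2, 127 and 82.4 CPM in Bama room temperature. SLCO2B1 had 258, 251 and 240 CPM in Hezuo cold against 326, 247 and 316 CPM in Hezuo room temperature, and 193, 283 and 239 CPM in Bama cold against 240, 215 and 251 CPM in Bama room temperature. Both genes overlapped between temperatures in each breed, with averaged values of -0.05 ± 0.15 for SLCO1A2 and -0.12 ± 0.11 for SLCO2B1 (SE, adjusted p = 0.880 and 0.584). SLCO4A1, a thyroid hormone carrier, stayed at or below 2.00 CPM: 0.333, 0.733 and 2.00 CPM in Hezuo cold against 0.388, 0.363 and 0.526 CPM in Hezuo room temperature, and 1.67, 0.467 and 0.722 CPM in Bama cold against 0.629, 0.297 and 0.694 CPM in Bama room temperature. Its groups overlapped in both breeds (averaged value 1.03 ± 0.47, adjusted p = 0.209).

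SLCO2A1, which takes up prostaglandins and in liver is also found outside hepatocytes, had 78.7, 159 and 72.0 CPM in Hezuo cold against 28.1, 23.5 and 20.6 CPM in Hezuo room temperature. In Bama it had 18.1, 27.9 and 10.7 CPM in the cold against 10.6, 70.5 and 6.82 CPM at room temperature. The Hezuo groups were apart, and Bama room temperature replicate 2 stood far above the other 5 Bama libraries. Summed cholangiocyte markers (9 found) were 172 to 402 CPM in Hezuo cold against 142 to 163 CPM in Hezuo room temperature. The median log2 fold change of the 8 tested cholangiocyte markers went the other way, at -0.35. Summed sinusoidal endothelial markers (10 found, FCN3 at 0) were 2230 to 2380 CPM against 1850 to 2420 CPM in the same groups. The part of both marker sets in the SLCO2A1 values was not tested. Cold against room temperature gave 2.10 ± 0.76 in Hezuo (SE, edgeR adjusted p = 0.227) and 0.73 ± 0.52 averaged over breeds (adjusted p = 0.431). Fitted on the Hezuo libraries alone, the Hezuo value was 2.11 (adjusted p = 0.0497). Without Bama room temperature replicate 2, the averaged value was 1.61 (adjusted p = 0.0253), and Hezuo against Bama in the cold gave 2.45 (adjusted p = 0.0178) where the fit to all 12 libraries gave 2.45 ± 0.77 (adjusted p = 0.109).

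The 6 mitochondrial and lysosomal transporters had a median averaged cold value of 0.35, with 5 positive and 1 negative, and none passed. ABCB10, which acts in mitochondrial heme synthesis, was the negative one. It had 43.6, 36.4 and 36.1 CPM in Hezuo cold against 44.2, 40.8 and 50.8 CPM in Hezuo room temperature, and 28.4, 34.1 and 26.2 CPM in Bama cold against 41.2, 46.0 and 40.0 CPM in Bama room temperature. The Bama groups were apart and the Hezuo groups overlapped (averaged value -0.37 ± 0.10, SE, edgeR adjusted p = 0.0546). The call was made without Hezuo cold replicate 1 (adjusted p = 0.0472) and without Bama cold replicate 2 (adjusted p = 0.0356). The others include ABCB6, a porphyrin transporter (0.58 ± 0.22), ABCB8 of the inner mitochondrial membrane (0.54 ± 0.19), the lysosomal peptide transporter ABCB9 (1.23 ± 0.45, with at most 1.18 CPM) and the lysosomal cobalamin transporter ABCD4 (0.04 ± 0.11). 

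Hezuo against Bama called 1 of the 38 genes at room temperature by edgeR's quasi-likelihood test, where 1.08% of all genes passed, and 2 in the cold, where 2.76% passed. ABCA13 was higher in Hezuo at room temperature, where 0.672% of all genes were higher. In the cold ABCC6 was higher (1.80% of all genes) and SLCO3A1 lower (0.961% of all genes) in Hezuo. At an unadjusted p below 0.05 there were 8 of the 38 at room temperature (21.1%, against 19.8% of all genes) and 10 in the cold (26.3%, against 21.1%). DESeq2 called 4 at room temperature (ABCA4, ABCA13, ABCG1 and SLCO3A1), where it called 7.18% of all genes. In the cold it called 6 (ABCA1, ABCA13, ABCC6, ABCG1, SLCO2A1 and SLCO3A1) and 8.45% of all genes. Hezuo and Bama libraries did not overlap for 6 genes at room temperature (23.8% of all genes) and for 14 in the cold (25.2% of all genes). The summed level of 8 T and NK cell markers was 127 to 142 CPM in Hezuo cold against 165 to 247 CPM in Bama cold, and 111 to 132 CPM in Hezuo room temperature against 144 to 269 CPM in Bama room temperature, and its part in the results was not tested. Only ABCA13 and SLCO3A1 showed no overlap in the same direction at both temperatures, where 7.53% of all genes did.

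SLCO3A1, a carrier of prostaglandins and thyroid hormone, had 2.04, 1.38 and 1.27 CPM in Hezuo cold against 6.5, 5.5 and 3.41 CPM in Bama cold. At room temperature it had 1.77, 2.54 and 1.77 CPM in Hezuo against 6.16, 4.64 and 4.67 CPM in Bama. All 6 Hezuo libraries lay below all 6 Bama libraries. The log2 fold change was -1.72 ± 0.30 in the cold (SE, adjusted p = 0.0181) and -1.35 ± 0.29 at room temperature (adjusted p = 0.0510). In the cold the adjusted p was 0.0520 if Hezuo cold replicate 2 was left out, 0.0664 if Hezuo cold replicate 3 was and 0.0678 if Bama cold replicate 1 was, and the room temperature value passed without Bama cold replicate 1 (0.0491), Bama cold replicate 3 (0.0397) or Bama room temperature replicate 2 (0.0376).

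ABCC6 had 406, 426 and 365 CPM in Hezuo cold against 166, 238 and 183 CPM in Bama cold, and 417, 363 and 581 CPM in Hezuo room temperature against 250, 369 and 247 CPM in Bama room temperature. The breeds were apart in the cold, and at room temperature the lowest Hezuo library lay just below the highest Bama library. The log2 fold change was 1.03 ± 0.22 in the cold (SE, adjusted p = 0.0343) and 0.65 ± 0.22 at room temperature (adjusted p = 0.138). The call was lost in the fits without any 1 of the 6 cold libraries or without Hezuo room temperature replicate 1 (adjusted p = 0.0509 to 0.129). The gene lies next to ABCC1 in the RefSeq annotation of Sscrofa11.1, and ABCC1 did not pass in either breed comparison.

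ABCA13, a very large A-class protein, had 2.07, 3.13 and 2.10 CPM in Hezuo room temperature against 0.251, 0.631 and 0.442 CPM in Bama room temperature. In the cold it had 1.28, 2.85 and 2.16 CPM in Hezuo against 0.459, 0.898 and 0.558 CPM in Bama. All 6 Hezuo libraries lay above all 6 Bama libraries, at a mean level of 0.133 FPKM over the series. The log2 fold change was 2.46 ± 0.44 at room temperature (SE, adjusted p = 0.0331) and 1.71 ± 0.43 in the cold (adjusted p = 0.0539). The room temperature call was lost without any 1 of the 3 Hezuo room temperature libraries or without Bama room temperature replicate 1 or 3 (adjusted p = 0.0597 to 0.135), and Y-linked RNA stood at 0 to 3 counts in all 3 Bama libraries. With presence of Y-linked RNA as a covariate the log2 fold change was larger and its error wider, 3.27 ± 0.74 (SE, edgeR adjusted p = 0.349). The covariate term comes from the Bama cold libraries alone, where its presence varied.

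The next genes by p at room temperature were SLCO3A1, ABCA4 (-1.66 ± 0.40, adjusted p = 0.0629) and ABCG1 (1.02 ± 0.31, adjusted p = 0.112). ABCA4, known from the retina, had 2.20, 1.81 and 2.20 CPM in Hezuo room temperature against 4.84, 10.5 and 4.39 CPM in Bama room temperature, and 1.43, 3.15 and 1.22 CPM in Hezuo cold against 2.29, 2.52 and 2.03 CPM in Bama cold. The Bama room temperature libraries were the 3 highest of the 12. In the cold the next genes were ABCA13, ABCA1 (-0.61 ± 0.17, adjusted p = 0.0699) and SLCO2A1. ABCG1 was 1.02 ± 0.31 at room temperature and -0.95 ± 0.31 in the cold (adjusted p = 0.118), and ABCA1 0.42 ± 0.17 and -0.61 ± 0.17, so that for both genes Hezuo had the higher mean at room temperature and the lower mean in the cold. 

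**Figure D5:**
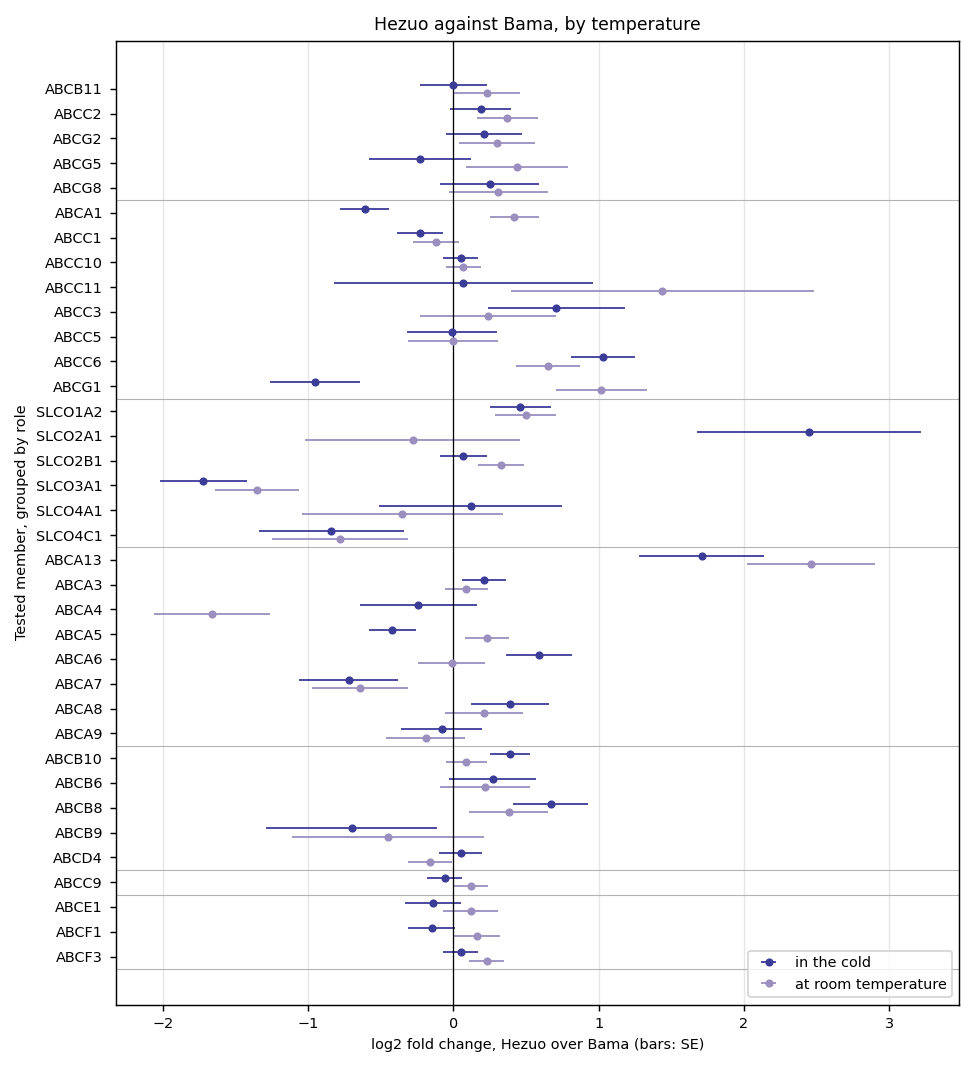
Log2 fold change, Hezuo over Bama, with its SE for 36 of the 38 tested genes in the cold and at room temperature, grouped by role. SLCO3A1 lies below 0 (-1.72 in the cold, -1.35 at room temperature) and ABCA13 above 0 (1.71 and 2.46) at both temperatures, and SLCO2A1 lies far from 0 in the cold only (2.45).

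Several well-known family genes carry no symbol in the deposited table and so are outside the 45. Their identifiers were matched to names in reference tables, which gave 9 such rows. SLCO1B3, the liver uptake carrier of bile salts and bilirubin, had a mean of 220 FPKM, above every one of the 45 genes. It had 1210, 953 and 1190 CPM in Hezuo cold against 365, 388 and 708 CPM in Bama cold, and 911, 921 and 1320 CPM in Hezuo room temperature against 456, 473 and 521 CPM in Bama room temperature. All 6 Hezuo libraries lay above all 6 Bama libraries, with 1.20 ± 0.25 in the cold (SE, adjusted p = 0.0327) and 1.12 ± 0.25 at room temperature (adjusted p = 0.0535). The cold call was lost in 6 of the 12 fits that left out 1 library (adjusted p = 0.0504 to 0.120).

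The drug exporter ABCB1 had 65.7, 58.8 and 87.3 CPM in Hezuo cold against 33.4, 33.2 and 43.5 CPM in Bama cold, and 53.8, 49.0 and 82.0 CPM in Hezuo room temperature against 51.0, 55.4 and 54.2 CPM in Bama room temperature. The breeds were apart in the cold and overlapped at room temperature (0.94 ± 0.21 in the cold, SE, adjusted p = 0.0356), and 7 of the 12 fits that left out 1 library lost the call (0.0507 to 0.132). Its neighbour ABCB4, which flips phosphatidylcholine into bile, had 89.4, 98.7 and 139 CPM in Hezuo cold against 30.7, 27.6 and 26.6 CPM in Hezuo room temperature, and 43.7, 55.8 and 79.7 CPM in Bama cold against 62.2, 35.5 and 18.5 CPM in Bama room temperature. Hezuo cold stood above all other libraries. The averaged cold value was 1.29 ± 0.26 (SE, adjusted p = 0.0288), and 7 of the 12 fits that left out 1 library lost the call (0.0502 to 0.0739). ABCF2, a soluble ABC protein, rose in the cold by 0.67 ± 0.12 (SE, adjusted p = 0.0187), a call lost without Bama room temperature replicate 3 (0.0545). ABCC4, a basolateral exporter, had 28, 39.2 and 21.8 CPM in Hezuo cold against 24.2, 21.1 and 24.9 CPM in Hezuo room temperature, and 26.6, 35.0 and 33.6 CPM in Bama cold against 24.6, 28.6 and 18.1 CPM in Bama room temperature, with overlap in both breeds (0.38 ± 0.15, adjusted p = 0.164).

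Other genes of bile salt and drug handling were read from lists that are not part of the 2 families. Of 11 tested solute carriers and related transporters, SLC29A1, a nucleoside carrier, was higher in Hezuo at room temperature (1.08 ± 0.19, SE, adjusted p = 0.0331). There 0.672% of all genes were higher. None of the 11 passed in cold against room temperature, and the bile salt carrier SLC10A1 passed in none of the 6. Of 21 nuclear receptors and factors that control transporter genes, HNF4A, a hepatocyte master factor, rose in the averaged cold comparison (0.98 ± 0.24, adjusted p = 0.0452). That adjusted p is near the threshold, and 1.95% of all genes rose. The bile acid receptor NR1H4, the oxysterol receptor NR1H3 and the drug receptors NR1I2 and NR1I3 passed in no comparison. HNF4A had 389, 484 and 429 CPM in Hezuo cold against 283, 135 and 392 CPM in Hezuo room temperature, and 358, 295 and 519 CPM in Bama cold against 182, 119 and 181 CPM in Bama room temperature. Of 11 canalicular scaffold and trafficking genes, PDZK1 was higher in Hezuo in the cold (0.82 ± 0.18, adjusted p = 0.0334), where 1.80% of all genes were higher. Alternative fits of SLC29A1, HNF4A and PDZK1 are not given here. TAP1, TAP2 and CFTR, which are ABC proteins under other names, passed in no comparison.

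The circRNA table gives a separate readout of the same loci from back-splice reads, which cross the junction of a closed RNA circle. It held 128 circRNAs from 20 of the 45 genes, with 3269 of 625980 back-splice counts (0.522%), and 115 of them were made of annotated exons. ABCA6 gave 35 circRNAs and 1938 counts, 59.3% of the total of the 45 genes, followed by ABCB11 (22 circRNAs, 236 counts), ABCC2 (11 and 227), ABCA1 (9 and 206), ABCC6 (4 and 150) and ABCA8 (14 and 144). SLCO2B1, which stood behind ABCB11 and ABCC2 by FPKM, gave 1 circRNA with 6 counts. 

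The most abundant circle of the set was made of exons of ABCA6 at chr12:11253178-11268222 in the coordinates of the deposited table, whose genome build is not given in the sources used here, with a spliced length of 1273 nt. It took 51.1% of the ABCA6 back-splice counts. It had 95, 46 and 76 counts in Hezuo cold against 116, 150 and 68 in Hezuo room temperature, and 48, 58 and 24 in Bama cold against 85, 120 and 105 in Bama room temperature. The Bama groups were apart and the Hezuo groups overlapped. The averaged cold value was -0.70 ± 0.20 (SE, edgeR adjusted p = 0.121) and passed without Hezuo cold replicate 1 (-0.85, adjusted p = 0.0477). Back-splice counts of all 35 ABCA6 circRNAs together were also set against ABCA6 gene counts. Per 100 gene counts there were 1.94, 1.44 and 1.60 in Hezuo cold against 2.96, 3.40 and 1.60 in Hezuo room temperature. In Bama there were 1.77, 1.87 and 0.760 in the cold against 1.94, 2.10 and 1.93 at room temperature. This summed ratio was lower in each Bama cold library than in each Bama room temperature library, by a narrow gap (1.87 against 1.93). In Hezuo the groups overlapped. The ratio of the most abundant circle alone is not given, and the summed ratio does not stand for it. 

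The next 4 circRNAs by counts were 2 further exonic circles of ABCA6 at chr12:11258622-11268222 (237 counts) and chr12:11253178-11266696 (230 counts), each sharing an end with the first, a circle of exon and intron of ABCC2 at chr14:110981135-110982816 (143 counts) and an exonic circle of ABCC6 at chr3:28314170-28316405 (131 counts). Of the 128, 48 had enough counts for testing and edgeR called none in any of the 6 comparisons, where 0.0886 to 0.454% of all circRNAs passed. ABCA6 alone gave 15 of these 48, so medians over the 48 weigh that gene most. In the averaged cold comparison 0.199% of all circRNAs passed, 5 of the 48 had an unadjusted p below 0.05 (7.86% of all circRNAs did), and the median log2 fold change was -0.55 for the 48 and -0.06 for all circRNAs. In Hezuo against Bama in the cold 0.421% passed, 8 of the 48 had an unadjusted p below 0.05 (8.49% of all circRNAs did), and the median was 0.61 for the 48 and -0.02 for all circRNAs. DESeq2 was not run on circRNAs. In Hezuo cold against room temperature 2 of the 48 had an unadjusted p below 0.05, against 5.79% of all circRNAs, and 0.0886% of all circRNAs passed. In Bama cold against room temperature there were 6, against 6.53% of all circRNAs, and 0.155% passed. Hezuo against Bama at room temperature held 4, against 7.94% of all circRNAs, and 0.454% passed. The breed difference held 6, against 5.67% of all circRNAs, and 0.0886% passed.

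The ABCC6 circle had the smallest p of the set in Hezuo against Bama in the cold, 2.27 ± 0.63 (SE, adjusted p = 0.0566). It had 7, 42 and 3 counts in Hezuo cold against 4, 4 and 4 in Bama cold, and 7, 8 and 21 in Hezuo room temperature against 10, 12 and 9 in Bama room temperature. The difference in the cold rested on Hezuo cold replicate 2, and without that library it was 0.37 ± 0.85 (adjusted p = 0.985). It passed without Hezuo cold replicate 1 (0.0171), Hezuo cold replicate 3 (0.00762), Hezuo room temperature replicate 1 (0.0490) or 2 (0.0463), or Bama room temperature replicate 2 (0.0489).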

How the data were processed

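The authors deposited estimated counts per gene and library beside FPKM values for the same genes, and back-splice counts per circRNA beside RPM values. RNA was depleted of ribosomal RNA and sequenced with strand information kept, per the labels' protocols, and fastp was used, per the submitters' processing notes. No aligner, counter, circRNA caller or build is named (not given in the sources used here). Of the nonzero gene counts deposited, 9.48% were fractional and were rounded to whole numbers.

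Genes were tested with edgeR 4.0.16 in R 4.3.3: TMM scaling, filterByExpr (minimum count 10, minimum total 15), a robust quasi-likelihood fit of 4 groups to all 12 libraries, and Benjamini-Hochberg adjustment over the 13532 genes kept, called below 0.05. The 6 contrasts were cold against room temperature in each breed and averaged, Hezuo against Bama at each temperature, and the breed difference in the cold response. Standard errors are the size of the log2 fold change over the root of F. CPM values are TMM-scaled. The TMM factors were 0.874 to 0.957 in the Hezuo libraries and 0.980 to 1.20 in the Bama libraries. The size of breed differences therefore depends on this scaling. The 9032 circRNAs with 10 or more counts in all, and 2 or more in 3 or more libraries, were tested likewise on back-splice counts. FPKM values were used only to compare levels between genes, and RPM values were not used. Gene names came from the deposited table for 14940 rows, an Ensembl table for 889 and RefSeq (Sscrofa11.1) for 2091. The fit was tested on simulated data.

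Alternatives were DESeq2 1.42.0, its size factors (RLE) in edgeR, no low-count filter, only the 2 groups compared, a replicate block, Y-linked RNA (DDX3Y of at least 50 counts) as a covariate, and leaving out each library. The titles reuse pig numbers 1 to 3 in every group and state no pairing. DDX3Y counts set Bama cold replicates 1 and 3 apart from the same-numbered room temperature libraries, and the other numbers are not settled. Deviations of same-numbered libraries from the group means correlated at r = -0.266 to 0.215, so numbers were not used as pairs. The genes and lists were chosen with earlier results of these data known. Values per library are given for every gene called in a comparison and for textbook hepatobiliary genes, and fold changes for the 5 smallest p of each comparison. Single values and plots of a few genes are not reported here, and these genes stay in the fits and counts. ABCA6, ABCA4 and ABCB10 were given per library after their values were seen.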

Additional observations from a re-analysis of the deposited data

Results flagged for a closer look

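ABCA1 had cold values of opposite sign in the breeds, with no overlap in either: all 3 cold libraries lay below all 3 room temperature libraries in Hezuo, and all 3 cold libraries lay above them in Bama. The difference of the cold responses (Hezuo minus Bama) was -1.02 on the log2 scale, with a standard error of 0.24. It did not pass by edgeR's quasi-likelihood test (adjusted p = 0.237, range 0.133 to 0.446 over the fits that left out 1 library) and passed by DESeq2 (adjusted p = 0.00808). Presence of Y-linked RNA also differed between the Bama groups, in 2 of 3 cold libraries and in none of the room temperature libraries. With it as a covariate the difference was -0.78 ± 0.27 (SE, edgeR adjusted p = 0.887). The Bama part of that fit rests on Bama cold replicate 2, so it cannot tell cold and Y-linked RNA apart.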

How the results depend on the processing

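With 3 pigs a group, most calls lie near the threshold. The number of the 38 genes called under edgeR and its alternatives was 0 in Hezuo cold against room temperature (4 by DESeq2, 1 with only the 2 groups), 0 in Bama cold against room temperature (6 by DESeq2), 1 in Hezuo against Bama at room temperature (4 by DESeq2, 0 with Y-linked RNA as a covariate, 0 to 2 leaving out 1 library), 2 in Hezuo against Bama in the cold (6 by DESeq2, 0 with only the 2 groups, 1 with the Y-linked covariate, 0 to 3 leaving out 1 library), 0 in the breed difference (2 by DESeq2) and 4 in the averaged cold response (2 with no low-count filter, 0 with the Y-linked covariate, 1 to 4 leaving out 1 library). With the Y-linked covariate the averaged cold response called 6 of all genes in place of 526, and ABCA3 had an edgeR adjusted p of 0.142. The Bama part of that fit rests on Bama cold replicate 2, since presence of Y-linked RNA varied only within Bama cold. With the replicate block, which no label backs as a pairing, the averaged cold response called 1 of the 38 genes, and ABCA13 passed in Hezuo against Bama in the cold (adjusted p = 0.0282) while ABCC6 did not (0.0514). Among circRNAs, Hezuo against Bama in the cold called 0, with 1 under RLE scaling and 0 to 1 leaving out 1 library, and the averaged cold response 0, with 0 to 1 leaving out 1 library. Signs reversed only for uncalled averaged cold values near 0: ABCG2 (0.03), SLCO1A2 (0.13), SLCO2B1 (0.01) and SLCO1B3 (-0.12) with the Y-linked covariate, and, leaving out 1 library, ABCA1 (-0.09 to 0.02), ABCG2 (-0.18 to 0.15), SLCO1A2 (-0.15 to 0.08) and SLCO1B3 (-0.14 to 0.16). The cause was not tested. Of 974 values of single genes and circRNAs under alternatives, 836 kept direction and side of the threshold, 87 lost the call, 36 gained it and 15 reversed. Most of the 974 belong to results not called in the main fit, which count as kept when they stayed uncalled. All 87 losses fell on called results. They ranged from 1 of 17 fits for ABCA3 to 15 of 17 for ABCA5, both in the averaged cold response. Tested genes that stayed under about 3 CPM in every library (ABCA13, SLCO4A1, SLCO4C1, ABCC11, ABCB9) rest on few counts. The same holds for SLCO3A1 in the Hezuo libraries, with 31 to 56 counts each.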
